A study of Homo sapiens with 18 samples.

Results

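HepG2 cells, a human liver cell line from a hepatoblastoma, were treated with 4 ligands or with either of 2 vehicles, and their RNA was counted per gene. The ligands were 6N, 10CA and 6N-10CA, small molecules used at 10 µM, and the phospholipid DLPC (dilauroylphosphatidylcholine) at 100 µM. The vehicles were DMSO and ethanol, each at 0.1%. Each of the 6 groups had 3 libraries, numbered 1 to 3 in every group, and all 18 of the 18 libraries of the series entered the comparison: the 12 ligand libraries against the 6 vehicle libraries. Cells of every group were in medium with charcoal-stripped serum, which is depleted of steroids and other lipids. The length of treatment is not given in the sources used here. The labels do not say whether libraries of a group came from separate cultures, so that p-values measure the spread between these libraries, which may be technical.

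All 4 ligands come from a study of LRH-1 (gene NR5A2), a nuclear receptor of liver, pancreas and gut. It holds phospholipids in its pocket and activates genes that handle bile acids, sterols and steroids, among them NR0B2, the gene of the corepressor SHP. DLPC is known as an agonist of LRH-1. Liver cells also make a large load of secreted proteins, which enter the endoplasmic reticulum (ER) through the SEC61 channel, receive sugars and are folded by chaperones such as HSPA5. The unfolded protein response adjusts the output of these chaperone genes to that load, through the transcription factors XBP1 and ATF6.

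Total counts were 28600903 to 34992442 per ligand library and 28135967 to 34579945 per vehicle library, and the 14797 genes that passed the filter on low counts held 99.96% of them. The 8 hepatocyte markers were all detected, and their summed level was 38229 to 47968 CPM with the ligands and 40544 to 45682 CPM with the vehicles. CPM is a count divided by the scaled size of its library. Of the markers of other cell types, KDR, TEK and HBB were at 0 in all 18 libraries, and LYZ and CD68 averaged 314 and 91.2 CPM. Summed levels were 6.20 to 11.2 CPM with the ligands and 7.05 to 11.1 CPM with the vehicles for 6 fibroblast markers, 29.8 to 46.5 and 32.6 to 37.9 CPM for 5 endothelial markers, and 335 to 512 and 393 to 464 CPM for 6 blood markers. Of these 17 markers 8 passed the filter. In the pooled comparison PDGFRB and LYZ were called lower, at -0.24 and -0.13, and none was called higher, where edgeR called 2.53% of tested genes lower. Taken singly, 2 were called lower with 6N, 2 lower with 6N-10CA and 4 higher with DLPC, where DLPC called 7.26% of tested genes higher. Their part in the results was not tested. In bulk RNA, fewer cells expressing a gene and less RNA per cell cannot be told apart.

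The comparison asked which genes moved the same way with all 4 ligands. The mean of the 4 ligand groups was set against the mean of both vehicles with edgeR's quasi-likelihood test, with the replicate number as a block. A gene was called at a Benjamini-Hochberg adjusted p under 0.05. Of the tested genes 609 were called (4.12%), 235 higher (1.59%) and 374 lower (2.53%). For 407 of them (2.75% of tested genes) the fitted log2 fold change also had the same sign in each ligand: 152 rose (1.03%) and 255 fell (1.72%). These are called common changes here. A shared sign by itself was frequent, with 24.9% of tested genes on 1 side in all 4 comparisons with or without a call, and the 4 comparisons share the 6 vehicle libraries. The genes just inside the threshold were IKBKG and ZBTB7B, both at an adjusted p of 0.0497, with log2 fold changes of -0.10 and -0.21. Those just outside were PDK3 and G2E3, with adjusted p-values of 0.0501 and 0.0502 and log2 fold changes of 0.15 and 0.11 (edgeR).

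The common changes were small. Their median size was 0.14 on the log2 scale, and 19 of the 407 reached 0.5. The weakest of the 4 ligands moved a gene by a median of 0.057, and in 86 genes the weakest reached 0.1. Median sizes over the 407 were 0.12 with 6N, 0.11 with 10CA, 0.16 with 6N-10CA and 0.16 with DLPC. In the separate comparisons 6N called 1068 genes (7.22%), 10CA 127 (0.858%), 6N-10CA 896 (6.06%) and DLPC 1939 (13.1%). The share of tested genes called higher was 2.84% with 6N, 0.311% with 10CA, 2.52% with 6N-10CA and 7.26% with DLPC, and the share called lower was 4.38%, 0.547%, 3.53% and 5.85% in the same order. Of the 407, 18 were called with no ligand alone, 159 with 1, 173 with 2, 52 with 3 and 5 with all 4. The direction was the same within each of the 3 replicate numbers for 404 of them. The 407 were called from these same libraries, so that this agreement is no separate support. The counts depend on the block and on single libraries. Without the block 76 genes were called and 62 were common. Without replicate number 2 these counts were 149 and 96, and without number 3 they were 198 and 126. Without DMSO library 3 the counts were 343 and 232, without ethanol library 2 they were 354 and 246, and without DMSO library 2 they were 399 and 277. Against DMSO alone 245 were called and 185 were common, and against ethanol alone 282 and 223. Of the 69 genes named by rule that were called, 34 lost the call against DMSO alone and 35 against ethanol alone, each with 3 vehicle libraries in place of 6, and 19 kept it in both comparisons.

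In 5 genes (0.0338% of tested genes) the change was called with each ligand on its own: CYB5A rose, and PGC, PPIB, SSC4D and MT-CO3 fell. CYB5A (chromosome 18, 74250847 to 74292016, GRCh38) encodes cytochrome b5, the ER protein that hands electrons to fatty acid desaturases and to some cytochromes P450. Its level was 363, 319.8 and 323 CPM in the 6N libraries, 235, 216 and 230.0 in the 10CA libraries, 296, 274 and 281 in the 6N-10CA libraries and 232, 219 and 237 in the DLPC libraries. The vehicle libraries had 195, 184 and 190.3 CPM with DMSO and 204, 186 and 212 CPM with ethanol. Every ligand library lay above every vehicle library, with 6N highest. The pooled log2 fold change was 0.44 ± 0.023 (SE), or 35.9% higher, with an adjusted p of 1.66e-10 in edgeR's test. By ligand it was 0.78 with 6N, 0.22 with 10CA, 0.54 with 6N-10CA and 0.23 with DLPC, and these differed from each other with an adjusted p of 3.50e-10.

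PGC (chromosome 6, 41736711 to 41754109) encodes progastricsin, an aspartic protease precursor of the stomach. It had 180.3 to 230.1 CPM with the ligands (median 206) and 232 to 265 CPM with the vehicles (median 243), with no overlap. Its pooled log2 fold change was -0.26 ± 0.031, with values of -0.22 with 6N, -0.21 with 10CA, -0.35 with 6N-10CA and -0.27 with DLPC. PPIB (chromosome 15, 64155812 to 64163205) encodes cyclophilin B, a prolyl isomerase of the ER lumen. Its level was 664, 635 and 592 CPM with 6N, 624, 604 and 612 with 10CA, 617, 603 and 590.1 with 6N-10CA and 617, 636 and 619 with DLPC. With the vehicles it was 677, 686 and 679 CPM for DMSO and 679.8, 673 and 705 CPM for ethanol. The 12 and the 6 libraries did not overlap, and the pooled log2 fold change was -0.15 ± 0.021. Its values by ligand lay between -0.18 and -0.12.

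SSC4D (chromosome 7, 76389334 to 76409695), a scavenger receptor cysteine-rich protein, had 71.6 to 84.8 CPM with the ligands (median 80.7) and 86.7 to 95.1 CPM with the vehicles (median 91.6). The groups did not overlap, and the pooled log2 fold change was -0.21 ± 0.025. MT-CO3, the mitochondrial gene of a cytochrome c oxidase subunit, had 432 to 544 CPM with the ligands (median 485) and 519 to 623 CPM with the vehicles (median 552). These ranges overlapped, and its pooled log2 fold change was -0.19 ± 0.031. In the pooled comparison each of the 5 was called in all 37 settings run for it. The count of 5 itself moved by over 1.5 times when single libraries were left out. It was 0 without 10CA library 3, and 2 without 10CA library 1, 10CA library 2 or DLPC library 1. It was 3 without DLPC library 3, DMSO library 2, DMSO library 3 or ethanol library 3. It was 8 without 6N library 1 or 6N library 3, 11 without ethanol library 1 and 16 without DMSO library 1. When 10CA was left out, 72 genes were called in each of the other 3 ligands. Reads of MT-CO3 may be shared with its neighbour MT-ATP6 and with nuclear copies, and those of PPIB and SSC4D with a gene on the other strand.

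**Figure D1:**
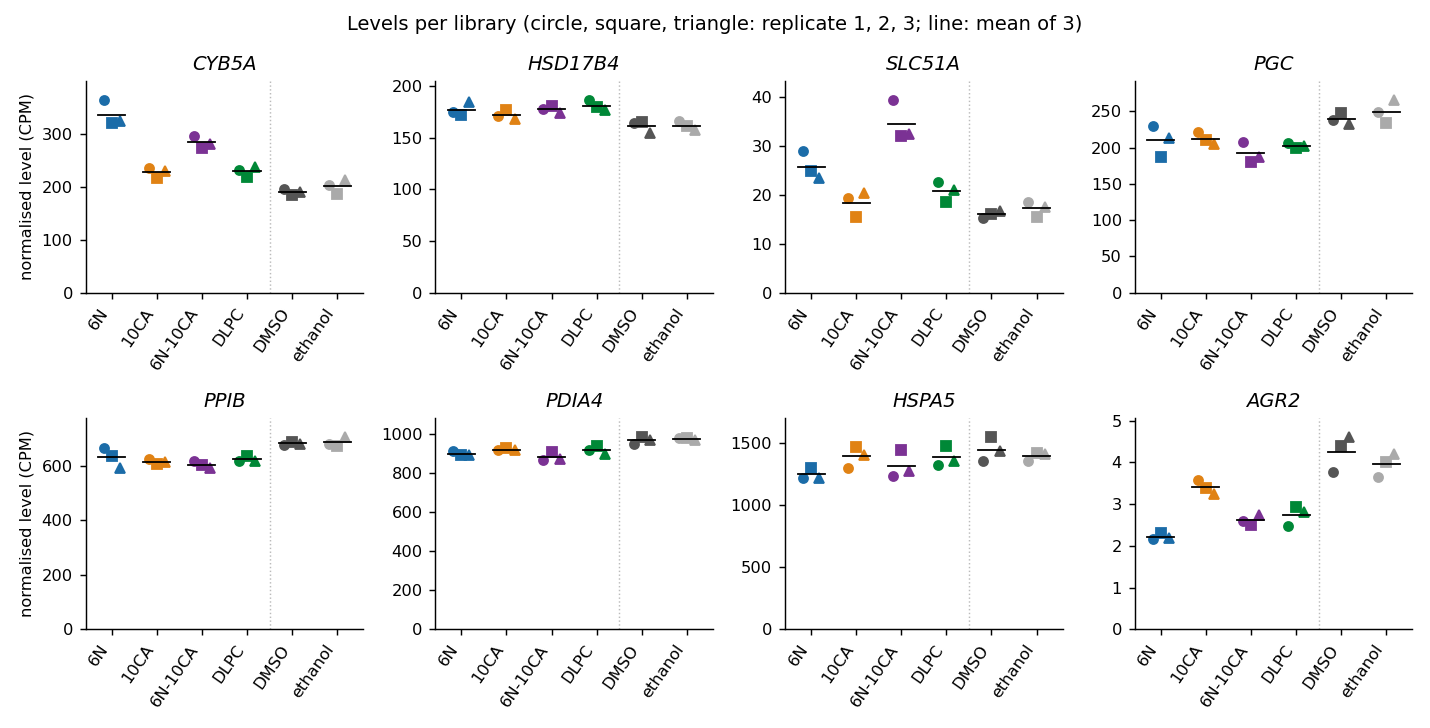
Normalised level (CPM, axis from 0) of 8 genes in each library, with the 4 ligand groups left of the dotted line and both vehicles right of it; points are the 3 libraries of a group and lines their means. CYB5A and HSD17B4 lie above the vehicles in all 12 ligand libraries, PGC, PPIB, PDIA4 and AGR2 lie below them in all 12, and the ranges of SLC51A and HSPA5 overlap.

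Complete separation of the 12 ligand from the 6 vehicle libraries was seen for 17 common genes. All 12 lay above in CYB5A, HSD17B4 and MTA3 (0.0203% of tested genes), and all 12 lay below in 14 (0.0946%): PGC, SSC4D, AGR2, PPIB, WFS1, PDIA4, PLPP5, P4HB, CLDN2, SDF4, SEC61B, AMPD2, MOGS and DBIL5P. HSD17B4 (chromosome 5, 119452443 to 119637199) encodes the peroxisomal enzyme that carries out the middle steps of very long chain fatty acid and bile acid side chain oxidation. It had 168 to 186 CPM with the ligands (median 176) and 154 to 166 CPM with the vehicles (median 163), a log2 fold change of 0.13 ± 0.022. By ligand it was 0.13 with 6N, 0.092 with 10CA, 0.14 with 6N-10CA and 0.16 with DLPC. MTA3, a subunit of the NuRD chromatin complex, rose by 0.13 ± 0.024.

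Several of the 14 genes that lay lower encode proteins of the ER or the Golgi. The share of such genes over all tested genes was not counted, so that this is a description only. AGR2, a member of the protein disulfide isomerase family in secretory cells, had 2.15 to 3.59 CPM with the ligands (median 2.67) and 3.66 to 4.61 CPM with the vehicles (median 4.11). It fell by 0.59 ± 0.077 on the log2 scale, with -0.88 with 6N, -0.26 with 10CA, -0.65 with 6N-10CA and -0.58 with DLPC. WFS1, a membrane protein of the ER mutated in Wolfram syndrome, had 86 to 105 CPM with the ligands (median 97.1) and 107 to 112 CPM with the vehicles (median 109) and fell by 0.18 ± 0.028. P4HB, the main protein disulfide isomerase, had 2190.5 to 2433 CPM with the ligands (median 2353) and 2437 to 2541 CPM with the vehicles (median 2496) and fell by 0.10 ± 0.017. PDIA4, another isomerase of that family, had 868 to 939 CPM with the ligands (median 910.5) and 948 to 984 CPM with the vehicles (median 975) and fell by 0.10 ± 0.016. SEC61B, a subunit of the translocation channel, fell by 0.13, and SDF4, a calcium-binding protein of the Golgi, by 0.10. MOGS, which trims the first glucose from N-glycans, fell by 0.07. Outside this compartment, CLDN2, a tight junction claudin, fell by 0.48 with 2.76 to 4.4 CPM with the ligands (median 3.72) and 4.6 to 5.79 CPM with the vehicles (median 5.14). AMPD2, an AMP deaminase, fell by 0.11, and PLPP5, a lipid phosphatase, by 0.21. The pseudogene DBIL5P was near the floor of 3 counts, which is 0.0847 to 0.108 CPM, with 0.0645 to 0.254 CPM with the ligands and 0.290 to 0.546 CPM with the vehicles. The 14 and 3 genes were singled out after their values were seen, by their separation.

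**Figure D2:**
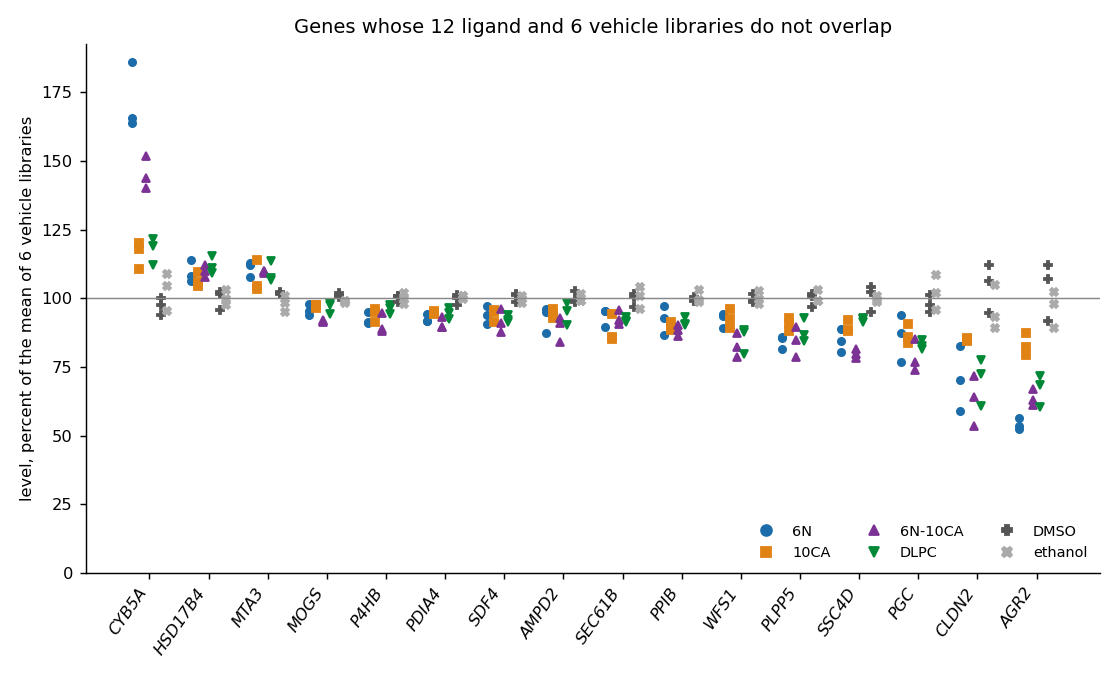
Level of the 16 separated genes that average 1 CPM or more, in each library as a percent of the mean of the 6 vehicle libraries (axis from 0), ligands left of vehicles within each gene. CYB5A reached 111 to 186% with the ligands and 94.0 to 109% with the vehicles, and AGR2 lay at 52.5 to 87.4% with the ligands and 89.2 to 112% with the vehicles.

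The list of the unfolded protein response held 24 genes, all tested. Its members, like those of the other lists, were chosen with earlier results of these data known, so that its counts are a description. Of the 24, 10 were called lower and none higher, where 2.53% of tested genes were called lower. Of these, 9 fell with the same sign in each ligand, where 1.72% of tested genes did: HSPA5, DNAJB9, DNAJB11, XBP1, HERPUD1, SDF2L1, PDIA4, HYOU1 and SEC61B. CRELD2 was called lower but stood at 0.002 with 6N. The median of the 24 was -0.087, beside 4.9e-06 over all tested genes, and was -0.12 with 6N, -0.046 with 10CA, -0.11 with 6N-10CA and -0.057 with DLPC. Of the 24, 22 lay below 0. Tested singly, 13 members were called lower with 6N, where 4.38% of tested genes were, and 11 with 6N-10CA, where 3.53% were. With DLPC 5 were called lower, where 5.85% of tested genes were, and EDEM1 was called higher. With 10CA 1 was called lower, where 0.547% were.

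HSPA5 (chromosome 9, 125234853 to 125241330) encodes BiP, the main chaperone of the ER. Its level was 1215, 1299.7 and 1219 CPM with 6N, 1299.9, 1466 and 1404 with 10CA, 1229.6, 1439 and 1276 with 6N-10CA and 1317, 1471 and 1356 with DLPC. With DMSO it was 1351, 1546 and 1433 CPM and with ethanol 1356, 1417 and 1406 CPM. The ranges overlapped, library 2 was the highest in all 6 groups, and the pooled log2 fold change was -0.092 ± 0.019 (adjusted p = 0.00673, edgeR). By ligand it was -0.19 with 6N, -0.03 with 10CA, -0.11 with 6N-10CA and -0.038 with DLPC, with an adjusted p of 0.00197 for differences among them. HYOU1, an ER chaperone related to HSP70, had 152 to 191 CPM with the ligands (median 173) and 172 to 201.1 CPM with the vehicles (median 187) and a pooled value of -0.13 ± 0.023. HERPUD1, a membrane component of ER-associated degradation, had 132 to 175 CPM with the ligands (median 153) and 148 to 195 CPM with the vehicles (median 174) and -0.16 ± 0.03. XBP1, the transcription factor spliced on ER stress, had 452 to 527 CPM with the ligands (median 483) and 489.6 to 547 CPM with the vehicles (median 517) and -0.11 ± 0.021.

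DNAJB9 and DNAJB11, co-chaperones of HSPA5, fell by 0.19 ± 0.048 and 0.14 ± 0.028. SDF2L1, which works with DNAJB11, fell by 0.16 ± 0.029, with -0.081 with 6N, -0.13 with 10CA, -0.17 with 6N-10CA and -0.28 with DLPC. The other 14 members were not called. Among them HSP90B1 (GRP94) had -0.014 with a 95% interval of -0.057 to 0.028, CALR -0.041 (-0.074 to -0.0079), CANX -0.028 (-0.077 to 0.021) and EDEM1 0.0046 (-0.083 to 0.092). DDIT3 (CHOP), the transcription factor of the PERK branch, stood at 0.084 (-0.0033 to 0.17). The count of 9 was 8 to 10 without any 1 library, 1 without the block and 3 with ethanol alone as the vehicle. Without replicate number 2 it was 4, and without number 3 it was 2.

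**Figure D3:**
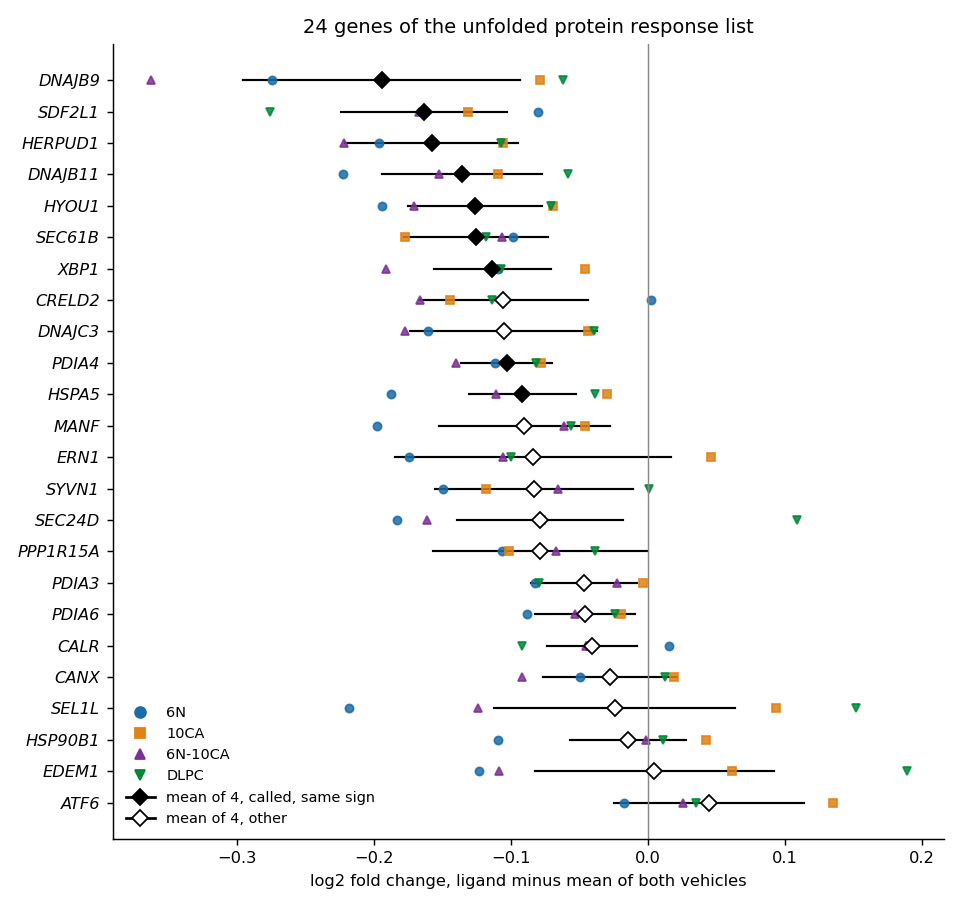
Log2 fold change against the mean of both vehicles for the 24 genes of the unfolded protein response list, with 1 coloured point per ligand and a diamond for the mean of the 4 with its 95% interval. Filled diamonds are the 9 genes called lower with the same sign in each ligand; 22 of the 24 diamonds lie left of 0.

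Genes of this response are known to be induced through the ER stress element, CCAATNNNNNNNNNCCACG, and the shorter ERSE-II, ATTGGNCCACG (N is any base), which are bound by ATF6 and XBP1 together with NF-Y. Both were searched on both strands of the RefSeq promoter windows, 300 bases from 250 before to 50 after each gene start (GRCh38.p14). The first was found in 22 of 27305 windows (0.0806%) and the second in 15 (0.0549%). Of the 22 list members with a window, 9 held at least 1 of the elements, including 5 of the 9 common genes: HSPA5 and XBP1 held the first and HERPUD1, HYOU1 and SDF2L1 the second. No other common lower gene of the 186 with a window held either element, and none of the 117 common higher ones did. The elements were also present in CALR, CANX and HSP90B1, which were not called, and in CRELD2. A match is a description of the letters only. The windows of 3 common genes are shown, in the direction of the gene with the element in capitals: HSPA5 (chr9:125241294-125241593, minus strand), where it lies 66 to 48 bases before the start; HERPUD1 (chr16:56931892-56932191, plus strand), at 117 to 107 bases; and HYOU1 (chr11:119057156-119057455, minus strand), where the second element occurs at 185 to 175 and at 79 to 69 bases, both on the opposite strand.
HSPA5: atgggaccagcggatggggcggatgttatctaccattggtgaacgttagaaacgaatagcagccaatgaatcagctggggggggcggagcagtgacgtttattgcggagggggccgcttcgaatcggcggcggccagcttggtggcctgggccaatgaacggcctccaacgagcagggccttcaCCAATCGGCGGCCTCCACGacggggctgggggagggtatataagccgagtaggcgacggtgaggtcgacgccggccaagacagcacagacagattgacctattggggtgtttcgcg
HERPUD1: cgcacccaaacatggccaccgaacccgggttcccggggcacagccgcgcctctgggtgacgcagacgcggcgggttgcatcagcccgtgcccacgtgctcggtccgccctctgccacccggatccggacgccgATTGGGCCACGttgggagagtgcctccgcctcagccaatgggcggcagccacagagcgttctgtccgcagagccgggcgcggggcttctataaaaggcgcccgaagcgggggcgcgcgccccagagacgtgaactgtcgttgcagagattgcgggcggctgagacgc
HYOU1: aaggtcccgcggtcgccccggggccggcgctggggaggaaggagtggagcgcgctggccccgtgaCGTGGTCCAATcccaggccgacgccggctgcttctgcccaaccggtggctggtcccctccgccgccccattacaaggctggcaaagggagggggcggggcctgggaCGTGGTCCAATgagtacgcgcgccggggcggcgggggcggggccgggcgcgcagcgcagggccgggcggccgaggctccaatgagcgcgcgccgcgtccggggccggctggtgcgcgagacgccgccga

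Further parts of the entry route into the ER were looked at with a list of 41 genes of translocation, signal peptide cleavage and N-glycosylation, assembled after the values were seen. Since its members were picked in this way, its counts are a description. Of the 41, 9 were called lower (2.53% of all tested genes) and none higher. Of these 9, 7 fell with the same sign in each ligand (1.72% of all tested genes): SEC61A1, SEC61B, SSR2, SSR3, SEC11C, STT3A and MOGS. SEC61A1, the pore subunit of the channel, fell by 0.10 ± 0.019. SSR2 and SSR3, of the translocon-associated complex, fell by 0.14 ± 0.025 and 0.08 ± 0.022. SEC11C, a catalytic subunit of signal peptidase, fell by 0.11 ± 0.023, with -0.13 with 6N, -0.10 with 10CA, -0.12 with 6N-10CA and -0.11 with DLPC. STT3A, a catalytic subunit of oligosaccharyltransferase, fell by 0.062 ± 0.016. PRKCSH and RPN1 were called lower without the same sign, at -0.087 and -0.061. The median of the 41 was -0.035, and 10 members lay above 0, among them SRP54 at 0.053 (-0.0019 to 0.11). The count of 7 was 1 without the block, 2 with DMSO alone and 4 with ethanol alone as the vehicle, and 4 with DMSO for the small molecules and ethanol for DLPC. It was 4, 1 and 1 without replicate number 1, 2 or 3, 13 when 6N was left out of the contrast and 4 when 6N-10CA was left out.

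Among common lower genes of the same compartment outside both lists were TMED9 (-0.10) and TMED3 (-0.087), cargo receptors between ER and Golgi, and P3H1 (-0.093) and CRTAP (-0.094), partners of PPIB in collagen prolyl 3-hydroxylation. MYDGF (-0.12), a secreted factor with an ER retention signal, and TAPBP (-0.10), which loads peptides onto MHC class I, also fell. These were chosen after their values were seen. P3H1 stood at -0.11 with 6N, -0.09 with 10CA, -0.10 with 6N-10CA and -0.068 with DLPC, and TMED9 at -0.12 with 6N, -0.12 with 10CA, -0.079 with 6N-10CA and -0.079 with DLPC.

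All 13 mitochondrial mRNAs were tested and lay below 0 in the pooled comparison, with a median of -0.11. Of these 4 were called lower with the same sign in each ligand, where 1.72% of tested genes were: MT-ND2, MT-CO2, MT-CO3 and MT-CYB. With or without a call, 10 of the 13 lay below 0 in each ligand, where 12% of tested genes did. MT-ND2, a subunit of complex I, had 315 to 406 CPM with the ligands (median 350.3) and 367 to 423 CPM with the vehicles (median 383) and a pooled value of -0.14 ± 0.02. MT-CO2 had 509 to 579 CPM with the ligands (median 554) and 555 to 662 CPM with the vehicles (median 593) and -0.12 ± 0.025. MT-CYB, the cytochrome b of complex III, had -0.13 ± 0.036. The ranges of all 4 overlapped. The list's medians were -0.072 with 6N, -0.19 with 10CA, -0.074 with 6N-10CA and -0.074 with DLPC. Mitochondrial mRNAs took 0.391 to 0.454% of counts in ligand libraries and 0.424 to 0.517% in vehicle libraries. The median of 29 tested nuclear genes of the respiratory chain was 0.013. The count of 4 was 1 without the block, 2 with DMSO alone, 8 with a correction for GC content, 2 with one for transcript length, 2 without replicate number 2 and 10 with no filter on low counts.

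Of 24 tested genes of xenobiotic metabolism 3 were called higher and 4 lower, where 1.59% and 2.53% of tested genes were. POR alone of them rose in common, and NQO1, UGT2B7 and ALDH3A1 fell in common, where 1.03% and 1.72% of tested genes did. POR, the reductase that feeds electrons to all microsomal cytochromes P450, had 566 to 765 CPM with the ligands (median 633) and 563 to 598 CPM with the vehicles (median 572) and rose by 0.15 ± 0.022. By ligand POR stood at 0.29 with 6N, 0.02 with 10CA, 0.18 with 6N-10CA and 0.11 with DLPC, with 10CA the smallest. In the list of bile acid synthesis and transport 3 of 23 tested genes rose in common, where 1.03% of tested genes did, and none fell in common: SLC51A, HSD17B4 and SCP2. In all 5 of the list were called higher and 1 lower, where 1.59% and 2.53% of tested genes were. Of its members 12 lay above 0 and 11 below. The medians were 0.08 with 6N, -0.024 with 10CA, 0.029 with 6N-10CA and 0.058 with DLPC. SLC51A (chromosome 3, 196211487 to 196243178), a subunit of the bile acid exporter OSTα-OSTβ, had 29, 24.9 and 23.4 CPM with 6N, 19.4, 15.4 and 20.5 with 10CA, 39.4, 32 and 32.4 with 6N-10CA and 22.6, 18.5 and 21 with DLPC. The vehicle libraries had 15.4, 16.2 and 16.7 CPM with DMSO and 18.6, 15.5 and 17.6 CPM with ethanol. The libraries with 6N and 6N-10CA lay above all vehicle libraries, and 10CA and DLPC overlapped them. The pooled value was 0.54 ± 0.052, with 0.63 with 6N, 0.14 with 10CA, 1.05 with 6N-10CA and 0.31 with DLPC. SCP2, a peroxisomal thiolase and sterol carrier, rose by 0.10 ± 0.024. Its level was 95.3 to 106 CPM with the ligands (median 102) and 88.7 to 97.4 CPM with the vehicles (median 95.4). SCP2 was 0.08 (adjusted p = 0.225, edgeR) against DMSO alone and 0.12 (adjusted p = 0.042) against ethanol alone. With DMSO for the small molecules and ethanol for DLPC, its adjusted p was 0.0553 (edgeR).

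Of 23 tested genes of fatty acid oxidation and PPAR targets 3 rose in common, where 1.03% of tested genes did, and none fell in common. FABP1, a fatty acid binding protein, was called lower at -0.13, with -0.69 with 6N, -0.10 with 10CA, 0.13 with 6N-10CA and 0.16 with DLPC. The list's pooled median was 0.06, and it was -0.03 with 6N, 0.025 with 10CA, 0.057 with 6N-10CA and 0.094 with DLPC. With 6N 2 members were called higher and 5 lower, where 2.84% and 4.38% of tested genes were. CPT1A, which admits long-chain fatty acids to mitochondria, had 3.68 to 7.08 CPM with the ligands (median 5.47) and 3.45 to 4.93 CPM with the vehicles (median 4.29) and a pooled value of 0.37 ± 0.088. It stood at 0.55 with 6N, 0.039 with 10CA, 0.37 with 6N-10CA and 0.54 with DLPC. CPT1A was 0.49 (adjusted p = 0.0338, edgeR) against DMSO alone and 0.25 (adjusted p = 0.309) against ethanol alone. ACADM, the medium-chain acyl-CoA dehydrogenase, rose by 0.12 ± 0.028, with 50.7 to 59.4 CPM with the ligands and 47.6 to 52.5 CPM with the vehicles. It was 0.14 (adjusted p = 0.0484, edgeR) against DMSO alone and 0.099 (adjusted p = 0.189) against ethanol alone. CREB3L3, an ER-anchored transcription factor of fasting liver, rose by 0.12 ± 0.028, at 0.0066 with DLPC and 0.019 with 10CA. The shared sign depends on pooling the vehicles: DLPC stood at -0.088 against ethanol alone, and the pooled value was 0.21 (adjusted p = 0.00403, edgeR) against DMSO alone and 0.021 (adjusted p = 0.86) against ethanol alone. ANGPTL8, an inhibitor of lipoprotein lipase made by fed liver, rose by 0.27 ± 0.036, with 0.02 with 6N, 0.10 with 10CA, 0.27 with 6N-10CA and 0.70 with DLPC.

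Of the 21 hypoxia genes 12 were called higher, where 1.59% of tested genes were, but 3 of them shared their sign in each ligand: P4HA1, EPO and EGLN1. P4HA1, the catalytic subunit of collagen prolyl 4-hydroxylase, had 162 to 269 CPM with the ligands (median 207) and 154 to 193 CPM with the vehicles (median 173) and rose by 0.29 ± 0.028. Its values were 0.075 with 6N, 0.30 with 10CA, 0.63 with 6N-10CA and 0.17 with DLPC, and within each replicate number all 4 ligand libraries lay above both vehicle libraries. Its partner subunit is P4HB, which fell, as given above. EPO, the hormone erythropoietin, had 18.9 to 34.6 CPM with the ligands (median 26.5) and 18.9 to 27 CPM with the vehicles (median 20.9) and rose by 0.27 ± 0.052. It was 0.33 (adjusted p = 0.015, edgeR) against DMSO alone and 0.21 (adjusted p = 0.124) against ethanol alone. EGLN1, an oxygen-sensing prolyl hydroxylase, rose by 0.092 ± 0.024. EGLN1 was 0.096 (adjusted p = 0.139, edgeR) against DMSO alone and 0.087 (adjusted p = 0.189) against ethanol alone. The list's medians were -0.087 with 6N, 0.10 with 10CA, 0.14 with 6N-10CA and 0.22 with DLPC, so that the 6N median had the opposite sign. The count of 12 was 1 without the block, 2 with ethanol alone as the vehicle, and 6 without DMSO library 3 or without ethanol library 2. It was 4 when DLPC was left out of the contrast and 7 when 6N-10CA was left out. Without replicate number 1, 2 or 3 it was 7, 2 and 5.

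In the cell cycle list 3 of 35 genes rose in common, where 1.03% of tested genes did, and none fell: TOP2A, CDK1 and TPX2. TOP2A, the topoisomerase of dividing cells, had 428 to 489.8 CPM with the ligands (median 469) and 424 to 435 CPM with the vehicles (median 431) and rose by 0.11 ± 0.021. CDK1, the mitotic kinase, rose by 0.10 ± 0.027 and TPX2, a spindle protein, by 0.066 ± 0.019. Their adjusted p-values were close to the threshold, at 0.0412 and 0.0491 (edgeR). Of 37 settings, CDK1 lost the call in 21, TPX2 in 31 and TOP2A in 4. CDK1 and TPX2 lost it both against DMSO alone and against ethanol alone. The medians of the list were 0.10 with 6N, 0.024 with 10CA, -0.016 with 6N-10CA and -0.041 with DLPC, and 18 members were called higher with 6N, where 2.84% of tested genes were, while 8 were called lower with DLPC, where 5.85% were. CDKN1A, the cell cycle inhibitor p21, fell by 0.16 ± 0.027, and BBC3, a p53 target that promotes apoptosis, by 0.18 ± 0.048. They were the 2 common genes among 22 p53 targets (1.72% of all tested genes fell in common). CDKN1A was -0.20 (adjusted p = 0.00338, edgeR) against DMSO alone and -0.11 (adjusted p = 0.106) against ethanol alone. BBC3 was -0.20 (adjusted p = 0.104, edgeR) against DMSO alone and -0.17 (adjusted p = 0.204) against ethanol alone. The medians of the p53 list were 0.035 with 6N, -0.0079 with 10CA, -0.055 with 6N-10CA and -0.096 with DLPC.

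Of 17 tested genes of inflammatory signalling 5 were called lower, where 2.53% of tested genes were, and 2 fell in common, UBD and RELB, where 1.72% did. UBD, a ubiquitin-like protein induced by cytokines, had 25.8, 28.6 and 24.6 CPM with 6N, 31.9, 37.6 and 29.4 with 10CA, 26.2, 29.1 and 25.4 with 6N-10CA and 15.9, 18.7 and 15.6 with DLPC. With DMSO it had 32.7, 41 and 33.4 CPM and with ethanol 34.5, 39.2 and 38.2 CPM. The DLPC libraries were lowest, and within each replicate number all 4 ligand libraries lay below both vehicle libraries. The pooled value was -0.55 ± 0.035, with -0.47 with 6N, -0.15 with 10CA, -0.44 with 6N-10CA and -1.13 with DLPC. UBD overlaps GABBR1 on the same strand, and their reads may be shared. RELB, a subunit of NF-κB, fell by 0.30 ± 0.075, with -0.70 with DLPC and -0.076 with 10CA. Its direction and call depend on the vehicle. Against DMSO alone RELB stood at 0.07 with 10CA and 0.03 with 6N-10CA. The mean of the 4 ligands was -0.16 (adjusted p = 0.518, edgeR) against DMSO alone and -0.45 (adjusted p = 0.0137) against ethanol alone, and with DMSO for the small molecules and ethanol for DLPC its adjusted p was 0.139 (edgeR).

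Among 22 acute phase genes 3 were called higher and 5 lower, where 1.59% and 2.53% of tested genes were. Of the 22, 11 lay on either side of 0, and the median was -0.0015. In common 3 fell, where 1.72% of tested genes did, and none rose. HP (haptoglobin) had 161 to 233 CPM with the ligands (median 198) and 199 to 234 CPM with the vehicles (median 225). It fell by 0.19 ± 0.022, HPX (hemopexin) by 0.18 ± 0.043 and ITIH4, an inter-alpha-trypsin inhibitor chain, by 0.27 ± 0.056. HPX was -0.18 (adjusted p = 0.103, edgeR) against DMSO alone and -0.17 (adjusted p = 0.137) against ethanol alone. ITIH4 was -0.28 (adjusted p = 0.045, edgeR) against DMSO alone and -0.25 (adjusted p = 0.0794) against ethanol alone. Of 25 genes of coagulation and complement 2 were called higher and 3 lower, where 1.59% and 2.53% of tested genes were. In common 1 rose and 2 fell, where 1.03% and 1.72% did. Of the 25, 16 lay below 0 and 9 above. The list's medians were -0.086 with 6N, -0.014 with 10CA, -0.046 with 6N-10CA and 0.10 with DLPC. C8A and C8B, chains of complement component 8, fell by 0.22 ± 0.053 and 0.34 ± 0.06. Against DMSO alone 10CA stood at 0.072 for C8A and 0.00093 for C8B, so that the shared sign rests on the pooled vehicles. The mean of the 4 ligands was -0.14 (adjusted p = 0.362, edgeR) against DMSO alone and -0.30 (adjusted p = 0.0219) against ethanol alone for C8A, and -0.23 (adjusted p = 0.158, edgeR) against DMSO alone and -0.45 (adjusted p = 0.00248) against ethanol alone for C8B. With DMSO for the small molecules and ethanol for DLPC, the adjusted p of C8A was 0.0933 (edgeR). MASP1, a protease of the lectin pathway, rose by 0.17 ± 0.045. It was 0.22 (adjusted p = 0.0525, edgeR) against DMSO alone and 0.12 (adjusted p = 0.354) against ethanol alone. Of 21 immediate early genes 4 were called lower and 2 fell in common, where 2.53% and 1.72% of tested genes did. These were FOSL1, a subunit of AP-1, by 0.29 ± 0.077 and SGK1, a kinase of salt and stress responses, by 0.32 ± 0.072. The medians of this list were -0.20 with 6N, -0.018 with 10CA, -0.065 with 6N-10CA and -0.13 with DLPC. Of its tested members 18 lay below 0 and 3 above. FOSL1 was -0.37 (adjusted p = 0.0565, edgeR) against DMSO alone and -0.21 (adjusted p = 0.346) against ethanol alone. SGK1 was -0.31 (adjusted p = 0.0918, edgeR) against DMSO alone and -0.33 (adjusted p = 0.0747) against ethanol alone.

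Single members of other lists moved in common, where 1.03% of tested genes rose and 1.72% fell in common. AKR1B10 and NQO1, NRF2 targets that reduce carbonyls and quinones, fell by 0.29 ± 0.036 and 0.073 ± 0.017, 2 of 22 tested. Against DMSO alone AKR1B10 stood at 0.0076 with 6N. NQO1 was -0.064 (adjusted p = 0.176, edgeR) against DMSO alone and -0.083 (adjusted p = 0.0574) against ethanol alone. UGT2B7, a glucuronosyltransferase, and ALDH3A1, an aldehyde dehydrogenase, fell by 0.12 ± 0.028 and 0.18 ± 0.045. UGT2B7 was -0.10 (adjusted p = 0.19, edgeR) against DMSO alone and -0.14 (adjusted p = 0.055) against ethanol alone. DNAJB1, a co-chaperone of HSP70, fell by 0.14 ± 0.03, 1 of 18 heat shock genes. It was -0.19 (adjusted p = 0.0111, edgeR) against DMSO alone and -0.078 (adjusted p = 0.389) against ethanol alone. SLC7A5, an amino acid transporter, rose by 0.092 ± 0.019 and PYCR1, an enzyme of proline synthesis, fell by 0.092 ± 0.023, the 2 common genes of 31 in the amino acid response list. SLC7A5 was 0.14 (adjusted p = 0.00426, edgeR) against DMSO alone and 0.039 (adjusted p = 0.523) against ethanol alone. PYCR1 was -0.048 (adjusted p = 0.517, edgeR) against DMSO alone and -0.14 (adjusted p = 0.017) against ethanol alone. Of 21 tested hepatocyte transcription factors 1 rose and 1 fell in common. FOXA1 and TBX3 went opposite ways, at -0.10 ± 0.023 and 0.11 ± 0.031, and both lost the call against either vehicle alone. FOXA1 was -0.11 (adjusted p = 0.06, edgeR) against DMSO alone and -0.095 (adjusted p = 0.112) against ethanol alone. TBX3 was 0.15 (adjusted p = 0.0529, edgeR) against DMSO alone and 0.078 (adjusted p = 0.392) against ethanol alone. PLA2G2A, a secreted phospholipase, fell by 0.39 ± 0.052, with -0.44 with 6N, -0.086 with 10CA, -0.21 with 6N-10CA and -0.84 with DLPC. Against DMSO alone PLA2G2A stood at 0.027 with 10CA and -0.10 with 6N-10CA. The pooled medians were -0.026 for 33 ribosomal proteins, -0.0088 for 25 genes of ribosome biogenesis, 0.021 for 32 regulators of chromatin and transcription, -0.021 for 26 genes of autophagy and lysosome and 0.014 for 22 of glucose metabolism.

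Ranked by the weakest of the 4 ligands, 12 genes in each direction stood at the top. The 12 higher were CYB5A, CRYAA, PLEK2, CYP24A1, SEC14L4, SEC14L6, MID1 and 5 clone-named RNAs. CRYAA, a lens crystallin with chaperone activity, had 20.4 to 35.1 CPM with the ligands (median 27.3) and 16.3 to 23.1 CPM with the vehicles (median 21) and rose by 0.46 ± 0.086, with 0.38 with 6N, 0.40 with 10CA, 0.43 with 6N-10CA and 0.62 with DLPC. CYP24A1, which inactivates vitamin D, rose by 0.89 ± 0.21, with 0.756 to 2.61 CPM with the ligands (median 1.25) and 0.491 to 1.41 CPM with the vehicles (median 0.602). It was 1.30 (adjusted p = 0.0242, edgeR) against DMSO alone and 0.49 (adjusted p = 0.436) against ethanol alone. The clone-named RNA RP13-1032I1.10 had the largest pooled value of the 12, 2.93 ± 0.64, and varied between libraries of a kind from 1.12 to 29.01 CPM with the ligands and from 0.152 to 7.85 CPM with the vehicles. The 12 lower were PGC, AGR2, CLDN2, ITIH4, SIAE, B4GALNT1, ADGRV1, PRR26, HIST1H2BC and 3 clone-named RNAs. SIAE, a sialic acid esterase, fell by 0.35 ± 0.066, with -0.29 with 6N, -0.35 with 10CA, -0.30 with 6N-10CA and -0.45 with DLPC. Its level was 5.81 to 7.68 CPM with the ligands, 10.7, 10.5 and 8.96 CPM with DMSO and 6.1, 7.67 and 7.69 CPM with ethanol, so that the DMSO libraries lay above all ligand libraries and the ethanol libraries overlapped them. The mean of the 4 ligands was -0.59 (adjusted p = 3.85e-04, edgeR) against DMSO alone and -0.10 (adjusted p = 0.648) against ethanol alone, and ethanol stood at -0.49 against DMSO with an adjusted p of 0.0768. HIST1H2BC, a histone gene with near-identical copies, fell by 0.36 ± 0.10 and was called with no ligand alone. Of all 73 genes named by rule or by separation that have a single annotated position, 25 overlap a protein-coding neighbour, and without knowledge of strand their reads cannot be told apart.

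The receptor's own gene was not called. NR5A2 (chromosome 1, 200027602 to 200177424) had 3.25 to 4.85 CPM with the ligands (median 4.21) and 3.11 to 5.17 CPM with the vehicles (median 3.67), and its pooled log2 fold change was 0.065 with a 95% interval of -0.15 to 0.28 (adjusted p = 0.803, edgeR). Of 31 tested LRH-1 targets, 4 were called higher and 1 lower, where 4.12% of tested genes were called. SLC51A alone was common, a share near the 2.75% over all tested genes. NR0B2 was called higher at 0.22 ± 0.038 but stood at 0.22 with 6N, -0.051 with 10CA, 0.38 with 6N-10CA and 0.33 with DLPC. STAR, which brings cholesterol into mitochondria for steroid synthesis, stood at 0.35 with 6N, -0.053 with 10CA, 0.44 with 6N-10CA and 0.20 with DLPC. CYP19A1, the aromatase, stood at 0.093 with 6N, -0.082 with 10CA, 0.10 with 6N-10CA and 0.51 with DLPC. In each of these genes 10CA alone had the opposite sign. With 10CA 0 LRH-1 targets were called higher and 0 lower, so that these 10CA values do not show a fall. The LRH-1 element CAAGGTCA was present in 1.33% of all promoter windows and in 1 of 117 windows of common higher and 0 of 186 windows of common lower genes, which says nothing on more distant sites.

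The 202 called genes without a shared sign showed where the ligands parted. The opposite sign was in 6N alone for 62 of them, in DLPC alone for 50, in 10CA alone for 59 and in 6N-10CA alone for 7, and more than 1 ligand was opposite in 24. Of 25 tested genes of cholesterol synthesis and uptake, 4 were called lower, where 2.53% of tested genes were. Of these 4, 1 fell in common, where 1.72% of tested genes did. The medians of this list were -0.46 with 6N, -0.079 with 10CA, 0.10 with 6N-10CA and 0.24 with DLPC, and 23 members were called lower with 6N, where 4.38% of tested genes were, and 21 higher with DLPC, where 7.26% were. SREBF1, the transcription factor of lipid synthesis, was called lower at -0.28 and stood at -1.06 with 6N, -0.084 with 10CA, -0.13 with 6N-10CA and 0.14 with DLPC. The LXR target MYLIP, which degrades the LDL receptor, fell in common by 0.40 ± 0.055, with -1.06 with 6N, -0.18 with 10CA, -0.30 with 6N-10CA and -0.079 with DLPC.

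**Figure D4:**
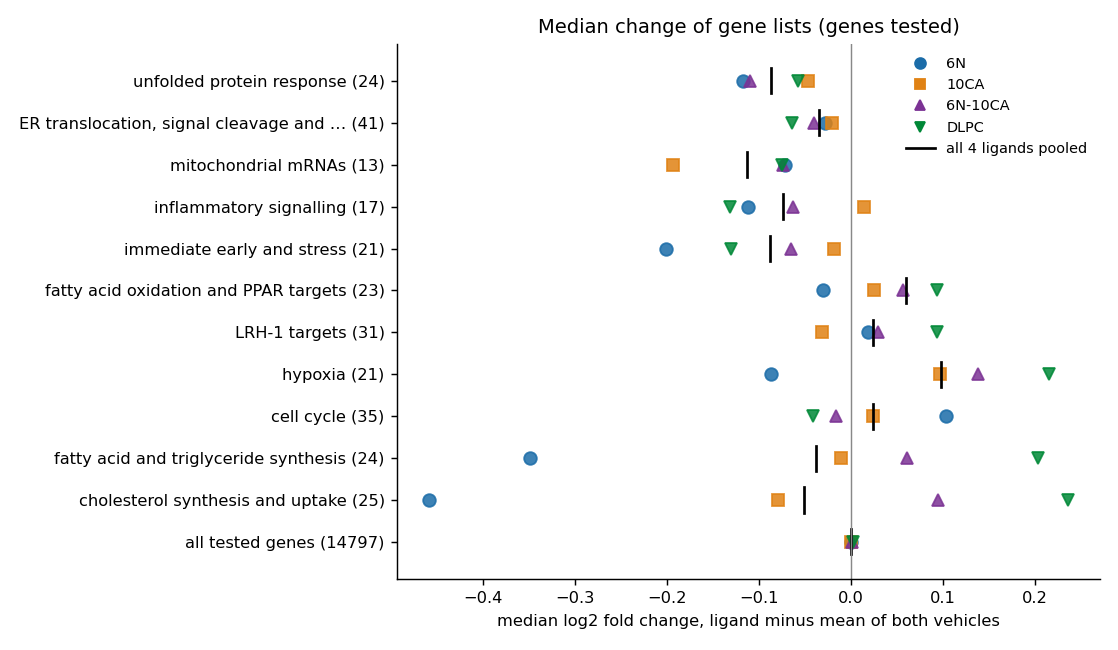
Median log2 fold change against the mean of both vehicles for 11 gene lists and for all tested genes, with 1 point per ligand, a black line for the pooled comparison and the number of genes tested in brackets. All 4 ligands lie below 0 for the unfolded protein response, ER translocation, mitochondrial and immediate early lists. The 6N and DLPC points lie on opposite sides of 0 for the fatty acid oxidation, hypoxia, cell cycle, fatty acid synthesis and cholesterol lists.

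Differences among the 4 ligands were tested without the vehicles. They were called for 3305 genes (22.3%), and for 181 of the 407 common genes (44.5%). DLPC was given at 10 times the concentration of the small molecules, so that compound and dose cannot be told apart there. Among the 3 small molecules at the same dose 1590 genes differed. For the other 226 common genes a difference was not called, which does not show that the ligands acted alike. Over the genes above 5 CPM, the median half-width of the 95% interval was 0.10 on the log2 scale for 1 ligand and 0.073 for the pooled comparison.

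Few genes were called between the vehicles. Ethanol against DMSO called 18 genes (0.122%), and 958 had an unadjusted p under 0.05. Of the common genes, 4 were among the 18. They include SLC6A8, PCSK6 and CCNY, which lay lower with ethanol than with DMSO by 0.62, 0.53 and 0.25. Set against DMSO for the small molecules and ethanol for DLPC, 370 of the 407 common genes kept the same sign in each ligand. Among the 69 called genes named by rule, CREB3L3, C8A, C8B, RELB, PLA2G2A and AKR1B10 did not. The pairing of ligand and vehicle is not in the labels and comes from knowledge of the study.

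The common genes also differed in composition. Longest annotated transcripts of the genes that rose had a median GC content of 45.2% and a length of 4324 bases, those that fell 55.6% and 2697 bases, and all tested genes 49.0% and 3537 bases. The slope of a library's levels on GC content, per 10 points and relative to its replicate number, was -0.053 to 0.024 with the ligands (median -0.0054) and -0.010 to 0.038 with the vehicles (median 0.013). With GC content fitted out and the block kept, 655 genes were called and 437 were common, of which 296 were among the 407. With transcript length fitted out instead, 778 were called and 500 were common, of which 355 were among the 407. Both fits covered only the 13873 tested genes with annotation. These include 141 of the 152 genes that rose in common and 246 of the 255 that fell. The unfolded protein response list had 11 common lower genes with either correction. The ER translocation list had 7 with the GC correction and 10 with the length correction.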

How the data were processed

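RNA of 18 HepG2 libraries, 3 in each of 6 groups, was sequenced as single-end reads of 100 bases from amplified cDNA (Nextera XT), per the labels' protocols. The deposited table of the authors holds raw counts, whole numbers with no normalization, for 35238 gene symbols. The submitters' processing notes name GRCh38 as build and DESeq2 as a tool; aligner, counter and strand setting were not given in the sources used here. There were 28 symbols that spreadsheet software had turned into dates, and these are not named.

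Genes were filtered with filterByExpr (minimum count 10 in about 3 libraries, total 15), scaled with TMM and fitted in a single quasi-likelihood model (edgeR 4.0.16, R 4.3.3) with 1 mean per group and the replicate number as a block, which the rule of this comparison sets. Each contrast was two-sided with Benjamini-Hochberg adjustment over all 14797 tested genes; SEs and 95% intervals come from this fit. Log2 fold changes are ligands minus vehicles. The biological coefficient of variation was 4.42%. Floors of 3 counts cover counting error only, and reads amplified without molecular identifiers do not count molecules. No library was a copy of another: the chi-square per gene between replicates was 4.71 to 14.7, and sampling noise alone would give about 1.

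The genes named are the 12 common genes in each direction with the largest weakest-ligand change and a mean of at least 1 CPM, up to 3 common members per list, genes called in all 4 ligands, and NR5A2; others are list members or were chosen after their values were seen, as stated; some genes are not reported here. The members and lists were chosen with earlier results of these data known. Positions, lengths and GC content come from GENCODE 29 on GRCh38, by symbol, and promoter sequences from RefSeq (GRCh38.p14). Alternatives included DESeq2 1.42.0, limma 3.58.1 with voom, other scalings, filters and vehicles, and leaving out libraries, replicate numbers and ligands; corrections for GC content and length were added after seeing the data. The scripts were tested on simulated data.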

Additional observations from a re-analysis of the deposited data

Results flagged for a closer look

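Of the 69 named genes called in common, 33 also differed among the 4 ligands by edgeR's test of the differences themselves, with adjusted p-values under 0.05. DLPC was given at 100 µM and the small molecules at 10 µM, so that its differences cannot be told apart from dose. Values below are the largest minus the smallest of the 4 log2 fold changes. The size was greatest with 6N in 10 of them, including spreads of 1.13 for CYP24A1, 0.98 for MYLIP, 0.62 for AGR2, 0.56 for CYB5A, 0.51 for CPT1A, 0.41 for C8A, 0.27 for POR, 0.13 for NQO1 and 0.12 for SLC7A5. The size was greatest with 6N-10CA in 8 of them, including spreads of 0.95 for PLEK2, 0.91 for SLC51A, 0.55 for P4HA1, 0.44 for C8B, 0.26 for CREB3L3, 0.21 for SSC4D, 0.17 for FOXA1 and 0.15 for XBP1. The size was greatest with DLPC in 15 of them, including spreads of 0.98 for UBD, 0.75 for PLA2G2A, 0.68 for ANGPTL8, 0.66 for FOSL1, 0.63 for RELB, 0.48 for AKR1B10, 0.42 for EPO, 0.37 for HP, 0.35 for HPX, 0.34 for SEC14L6, 0.27 for MASP1, 0.26 for CDKN1A, 0.22 for DNAJB1, 0.20 for SDF2L1 and 0.19 for MT-ND2. MYLIP stood at -1.06 with 6N, -0.18 with 10CA, -0.30 with 6N-10CA and -0.079 with DLPC, with an adjusted p of 1.24e-06 for the differences. UBD stood at -0.47 with 6N, -0.15 with 10CA, -0.44 with 6N-10CA and -1.13 with DLPC, with an adjusted p of 2.86e-09 for the differences. PLEK2 stood at 0.25 with 6N, 0.19 with 10CA, 1.13 with 6N-10CA and 0.62 with DLPC, with an adjusted p of 4.37e-04 for the differences. SLC51A stood at 0.63 with 6N, 0.14 with 10CA, 1.05 with 6N-10CA and 0.31 with DLPC, with an adjusted p of 1.76e-07 for the differences. In all 33 the 4 ligands shared their sign by the rule for common genes. Groups of 3 libraries are too small for a check on single outlying libraries.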

How the results depend on the processing

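The counts of calls depended on the block by replicate number more than on the statistical tool. Libraries with the same number deviated together in 43 of 45 pairs above a correlation of 0.1 (lowest -0.0089, median 0.31), against a median of -0.13 between numbers, and all 18 libraries correlated best with their own number, as a hint from the data, not the design. Without the block, 76 genes were called and 62 were common, 0 were called in all 4 ligands, 967 differed among ligands and 0 between vehicles, where the block gave 609, 407, 5, 3305 and 18.

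With no filter on low counts these were 952 called, 612 common, 21 in all 4 ligands and 170 between vehicles. DMSO alone as vehicle gave 245, 185 and 2 for the first 3 counts, ethanol alone 282 called and 223 common, and own vehicles 1 in all 4 ligands. A filter of at least 1 CPM in 3 libraries gave 8 in all 4 ligands, and DESeq2 13. Between vehicles DESeq2 called 35, limma-voom 30, the GC correction 31 and the length correction 40. Leaving 6N out of the contrast gave 1076 called, 954 common, 19 in each of the 3 left and 1705 differing; leaving out 10CA gave 72 in each of the 3, leaving out 6N-10CA 8, and leaving out DLPC 14 with 1590 differing. Leaving out 1 library or 1 number gave 149 to 705 called, 96 to 486 common, 0 to 16 in all 4 ligands, 1319 to 3375 differing and 0 to 33 between vehicles. The lowest counts, 149 and 96, came without replicate number 2. The causes were not tested.

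Of the called named genes, 13 stayed past the threshold in every setting that gave an adjusted p, and 56 lost the call in at least 1. Over all named genes and settings, 2054 of 2578 values kept direction and side of the threshold and 522 kept direction only. The 2 that turned were NR5A2, at -0.10 without replicate number 2 and -0.012 without DMSO library 2, within a range of -0.10 to 0.21 over the left-out libraries and numbers; it was called in none of these. No scaling or other setting moved the median of all genes by more than 0.0033. Depth limits genes near the floor of 3 counts, such as DBIL5P.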

Other observations

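Some common genes lie outside every list used here, and were picked for mention after their values were seen. ACTG1, a cytoplasmic actin, rose, while TAGLN, an actin-binding protein, fell. SPP1, the secreted phosphoprotein osteopontin, and ARSI, an arylsulfatase, fell. CD74, the invariant chain of MHC class II, and IFITM3, an interferon-induced membrane protein, fell as well. Pooled log2 fold changes were 0.16 ± 0.02 for ACTG1 and -0.30 ± 0.043 for TAGLN, which stood at -0.082 with 6N, -0.17 with 10CA, -0.17 with 6N-10CA and -0.79 with DLPC. SPP1 had 654 to 946 CPM with the ligands (median 823) and 933 to 1066 CPM with the vehicles (median 1009) and a pooled value of -0.32 ± 0.028, with -0.25 with 6N, -0.17 with 10CA, -0.55 with 6N-10CA and -0.29 with DLPC. ARSI had -0.37 ± 0.03, CD74 -0.16 ± 0.019 and IFITM3 -0.17 ± 0.025 (SE). ANXA4, a calcium-dependent membrane-binding annexin, rose by 0.19 ± 0.019, with 0.15 with 6N, 0.056 with 10CA, 0.32 with 6N-10CA and 0.25 with DLPC.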
